A study of Homo sapiens with 4 samples.

Results

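The genes described here are 7 rows of the gene table that handle adenosine outside the cell, out of 26484 rows in all: ACPP, NT5E, ENTPD1, ADORA1, ADORA2A, ADORA2B and ADA. They were chosen by name around ACPP, which stood out in the comparison of p53 knockout with parental cells. The knockout-against-parental values of the 7 genes are therefore given as a description and support nothing by themselves. RNA came from A375, a human melanoma cell line grown in DMEM, in 4 libraries: 2 were parental p53 wild type, and 2 were p53-/- after CRISPR-Cas9 editing. The knockout libraries are numbered 2 and 8 as in the deposited table, and the labels do not say whether they are separate clones or cultures, so the spread between libraries may be technical. No edited line that kept p53 was among the libraries, and loss of p53 cannot be told apart from editing or from selection of the edited cells.

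Cells release ATP, which works as a signal on their surface and on that of their neighbours. ENTPD1 (CD39) strips ATP and ADP to AMP, NT5E (CD73) and ACPP (prostatic acid phosphatase) turn AMP into adenosine, and ADA (adenosine deaminase) turns adenosine into inosine. Adenosine acts on G protein-coupled receptors, of which ADORA1 lowers cAMP while ADORA2A and ADORA2B raise it; in tumours this pathway is known for restraining T cells. ACPP is known as a secreted enzyme of the prostate and also has a membrane-bound form. The table gives 1 value per gene, so these forms could not be told apart among the 5 protein-coding ACPP transcripts of GENCODE 29.

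The upstream sequences of ACPP and NT5E, the AMP phosphatases of the set, are shown because they differ in base composition. Both are the 250 bases before the RefSeq start site on GRCh38.p14, plus strand, with each CG dinucleotide in capitals. ACPP is at chr3:132317157-132317406 and NT5E at chr6:85449833-85450082.
ACPP: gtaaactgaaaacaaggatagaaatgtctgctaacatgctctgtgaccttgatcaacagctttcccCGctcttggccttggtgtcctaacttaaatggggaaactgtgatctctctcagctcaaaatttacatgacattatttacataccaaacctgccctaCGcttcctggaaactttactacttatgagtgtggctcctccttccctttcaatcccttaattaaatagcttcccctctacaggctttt
NT5E: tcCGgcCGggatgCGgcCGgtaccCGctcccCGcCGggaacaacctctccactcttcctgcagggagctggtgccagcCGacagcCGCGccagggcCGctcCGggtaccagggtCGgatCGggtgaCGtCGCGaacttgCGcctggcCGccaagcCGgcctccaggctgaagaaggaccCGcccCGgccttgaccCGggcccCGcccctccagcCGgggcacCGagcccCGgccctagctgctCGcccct
The ACPP stretch held 2 CG dinucleotides and was 42% G or C, while that of NT5E held 28 and was 75.2% G or C.

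RefSeq start windows, 300 bases from 250 before to 50 after the start, were on hand for 6 of the 7 genes. Over this window the GC content of ACPP was 43.7%, against a median of 58.7% in the 35116 windows of the table. Those of ADORA1 (65.0%), NT5E (75.0%), ADORA2B (75.7%) and ADA (79.3%) lay above that median. ENTPD1 has 5 listed starts, 4 of them below the median and 1, at 62.7%, above it. On either strand, none of these windows held the p53 response element decamer, which 6.63% of all windows held. None held the ACGTG form of the hypoxia response core, which 21.4% held. Its GCGTG form was not searched for, and it occurs upstream of ADORA2B, ADA and an ENTPD1 start. The cAMP response element core TGACG, in 24.6% of all windows, was found in NT5E, ADORA2B and 2 of the ENTPD1 windows, and not in ACPP. These matches describe letters, not binding.

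The libraries held 29230554 and 36331894 reads (parental 1 and 2) and 30334054 and 32160978 reads (knockout 2 and 8). SOX10, a defining factor of the melanocyte lineage, had 25662 to 30033 normalized counts (reads divided by the authors' library factor) in the 4 libraries, while the pigment genes MLANA and TYR were at 0 in all of them. The knockout libraries differed from each other more than the parental ones did: across the 15431 genes that reached 10 normalized counts in 2 or more libraries, the median gap was 0.23 between knockout and 0.09 between parental libraries on the log2 scale. No gene (0 of 15431) passed an adjusted p of 0.05 by limma, the main test, nor by edgeR. At an unadjusted p under 0.05 limma gave 903 genes higher (5.85%) and 950 lower (6.16%), and edgeR gave 946 (6.13%) and 921 (5.97%). DESeq2 called 198 genes higher (1.24% of 15934) and 200 lower (1.26%). That tally came down to 38 genes in all without parental 1 and to 45 without parental 2, and went up to 1264 without knockout 2 and 2611 without knockout 8.

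ACPP had 369 and 322 normalized counts in parental 1 and 2, against 1705 and 1772 in knockout 2 and 8. Both knockout libraries lay far above both parental ones, and the knockout pair lay closer together than the parental pair. The group means were 346 ± 33.6 and 1738 ± 47.2 (SD, n = 2 each), from 704 parental and 3434 knockout reads. The fitted log2 fold change, on log2(normalized count + 1), was 2.33 ± 0.12 (SE), or 5.03-fold (95% interval 4.06 to 6.22). The gap between the parental libraries was 0.20 and that between the knockout libraries 0.06 on the same scale. A log2 fold change at least this large was seen in 40 genes, ACPP included (0.259% of 15431). The adjusted p was 0.121 by limma and 0.146 by edgeR, and 2.35e-38 by DESeq2. In bulk RNA a change in every cell cannot be told apart from a change in the share of cells that express the gene.

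**Figure D1:**
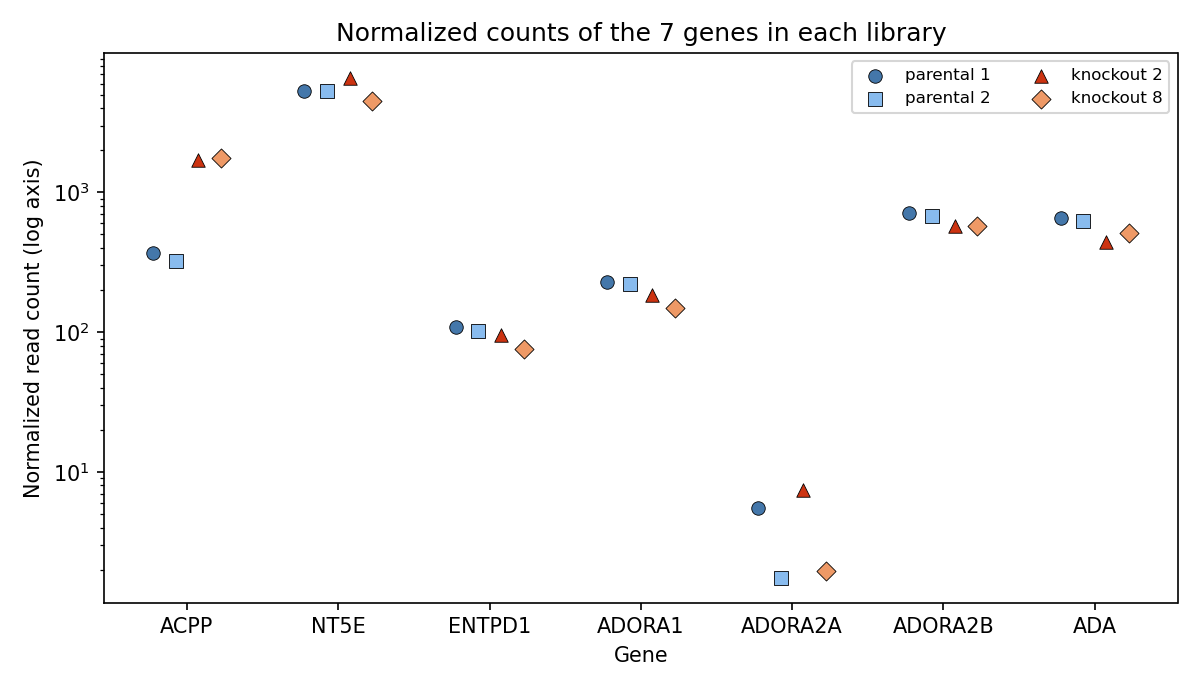
Normalized read counts (log axis) of the 7 genes, 1 point per library, parental in blue and knockout in red and orange. ACPP stands at 322 and 369 in the parental libraries and at 1705 and 1772 in the knockout libraries, and NT5E is the highest gene in every library.

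NT5E, the main cell-surface AMP phosphatase of many tumours, had 5330 and 5322 counts in the parental libraries, 6576 in knockout 2 and 4507 in knockout 8. The knockout libraries lay on either side of a parental pair that was nearly equal. The log2 fold change was 0.03 ± 0.19 (limma adjusted p = 0.958, 95% interval -0.48 to 0.54). Its direction rested on 1 library: it was -0.24 without knockout 2 and 0.30 without knockout 8, by limma and by DESeq2. With 1 knockout library left, these fits take no spread from the knockout group.

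ENTPD1, which supplies AMP, had 109 and 103 counts in the parental libraries, 95.8 in knockout 2 and 76.2 in knockout 8. The knockout values were both lower, by a log2 fold change of -0.30 ± 0.22 (limma adjusted p = 0.626), and knockout 2 lay close to the parental pair. ENTPD1-AS1, a gene on the opposite strand that shares 454 exon bases with ENTPD1 (6.51% of its exon bases), had 117, 102, 101 and 105. The strand setting of the counting is not given in the sources used here, so reads of these overlapping genes may not be fully separated.

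The receptor ADORA2B had 714 and 672 counts in the parental libraries, and 571 and 572 in knockout 2 and 8. The groups did not overlap, and the log2 fold change was -0.28 ± 0.11 (95% interval -0.55 to 0.0027, limma adjusted p = 0.420). ADORA1 had 228 and 221 against 183 and 149, also without overlap, with a log2 fold change of -0.44 ± 0.18 (95% interval -0.92 to 0.04, limma adjusted p = 0.443). Without knockout 2 that of ADORA1 was -0.58 by limma, and without knockout 8 it was -0.29. These fits take no spread from the knockout group. ADORA2A, the receptor best known on T cells, was barely detected, with 5 and 2 reads in the parental libraries and 7 and 2 in the knockout libraries. The ratio of its read sums, 9 to 7 reads, was 1.34 after scaling for depth, with an exact 95% interval of 0.443 to 4.22 that covers counting error only. ADORA2A fell below the count minimum of the tests. SPECC1L-ADORA2A, a readthrough gene that covers 56.8% of its exon bases, had 0, 0, 0 and 0.977, and how reads common to both were counted is not known. ADORA3, the fourth adenosine receptor, had 1, 1, 3 and 1 reads.

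ADA, which removes adenosine, had 656 and 620 counts in the parental libraries, and 439 and 512 in knockout 2 and 8. Both knockout libraries were lower, with means of 638 ± 25.1 and 475 ± 51.6 (SD, n = 2 each). The log2 fold change was -0.43 ± 0.13 (95% interval -0.77 to -0.08, limma adjusted p = 0.355). It was -0.54 without knockout 8 and -0.32 without knockout 2 by limma, in fits that take no spread from the knockout group. PKIG, an inhibitor of the cAMP-dependent protein kinase, overlaps ADA on the opposite strand and shares 46 exon bases with it, which is 1.61% of those of ADA. PKIG had 1712 and 1676 against 1248 and 1249, a log2 fold change of -0.44 ± 0.08 (limma adjusted p = 0.248).

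Of the 6 genes measured above the count minimum, 1 lay above and 4 lay below both parental libraries in each of the knockout libraries. Over all 15431 genes 22.8% were higher in this way and 23.7% lower. As the genes were picked with this comparison known, nothing is read from these counts.

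**Figure D2:**
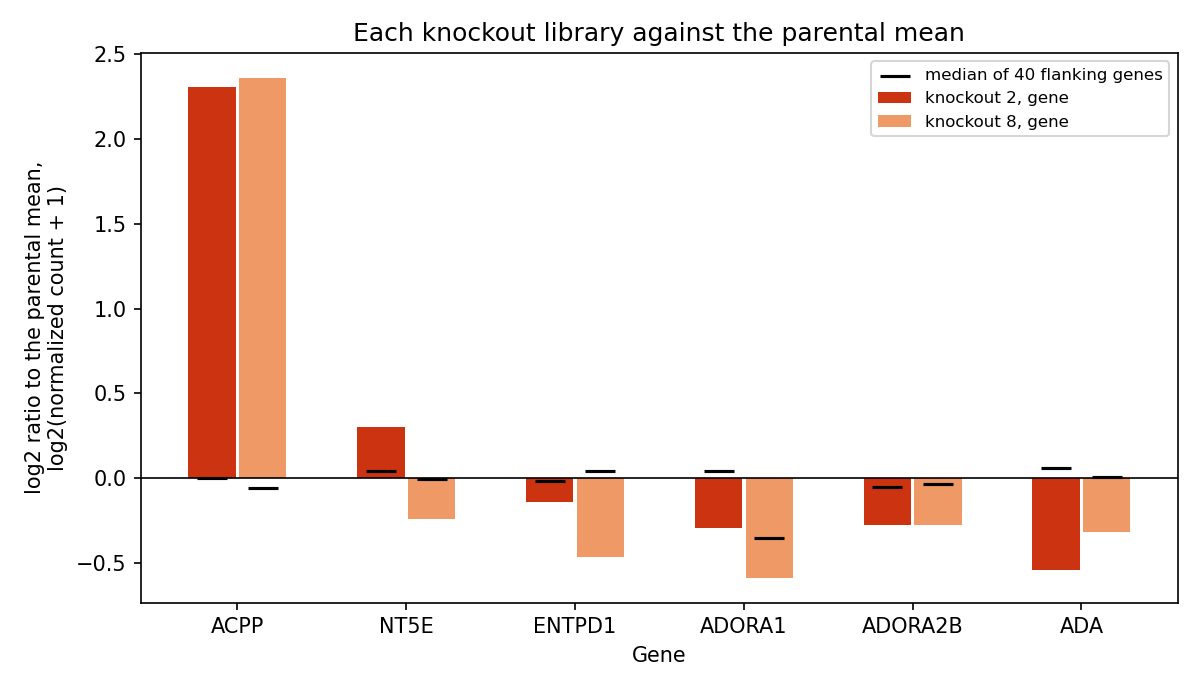
Bars give the log2 ratio of each knockout library to the parental mean for the 6 genes above the count minimum, and black ticks the median ratio of the 40 nearest genes with a mean of at least 100. ACPP is at 2.30 and 2.36 while its flanking genes stay near 0, and the flanking genes of ADORA1 are at -0.35 in knockout 8.

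Levels of different genes were compared as RPKM (reads per kilobase of GENCODE 29 exon, scaled to the total reads of the library). In the parental cells the order was NT5E at 36.8, ADORA2B at 8.50, ADA at 6.998, ACPP at 2.58, ADORA1 at 1.68, ENTPD1 at 0.474 and ADORA2A at 0.0270 (means of 2 libraries). No neighbours in that order overlapped between libraries. In knockout cells NT5E was at 38.6, and ACPP, at 13.1, came next, above ADORA2B at 7.08 and ADA at 5.27. ACPP was at 12.7 and 13.5 per library, above both values of ADORA2B (7.02 and 7.14). The level of ACPP exceeded that of 32.9% of 14383 tested genes in parental cells, and of 71.3% in knockout cells. NT5E exceeded 91.1% in parental cells. NT5E stayed above ACPP per length in every library, at 45.4 and 31.7 RPKM against 12.7 and 13.5 in knockout 2 and 8.

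ACPP lies on chromosome 3 from 132317367 to 132368298 (GRCh38, plus strand). CPNE4, the nearest protein-coding gene before it, lies 31957 bases away and had 1.10, 0, 0 and 0.977 normalized counts. DNAJC13, an endosomal protein gene 49228 bases beyond ACPP, had 3322 and 3193 against 3732 and 3697, a log2 fold change of 0.19 ± 0.07 (limma adjusted p = 0.421). A difference of the size seen at ACPP was not seen at its neighbours: NUDT16, MRPL3 and ACAD11, also within 5 places and above the count minimum, had log2 fold changes from -0.17 to 0.01. Over the 40 nearest genes with a mean of at least 100, the median ratio to the parental mean was 0.0019 in knockout 2 and -0.05 in knockout 8.

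**Figure D3:**
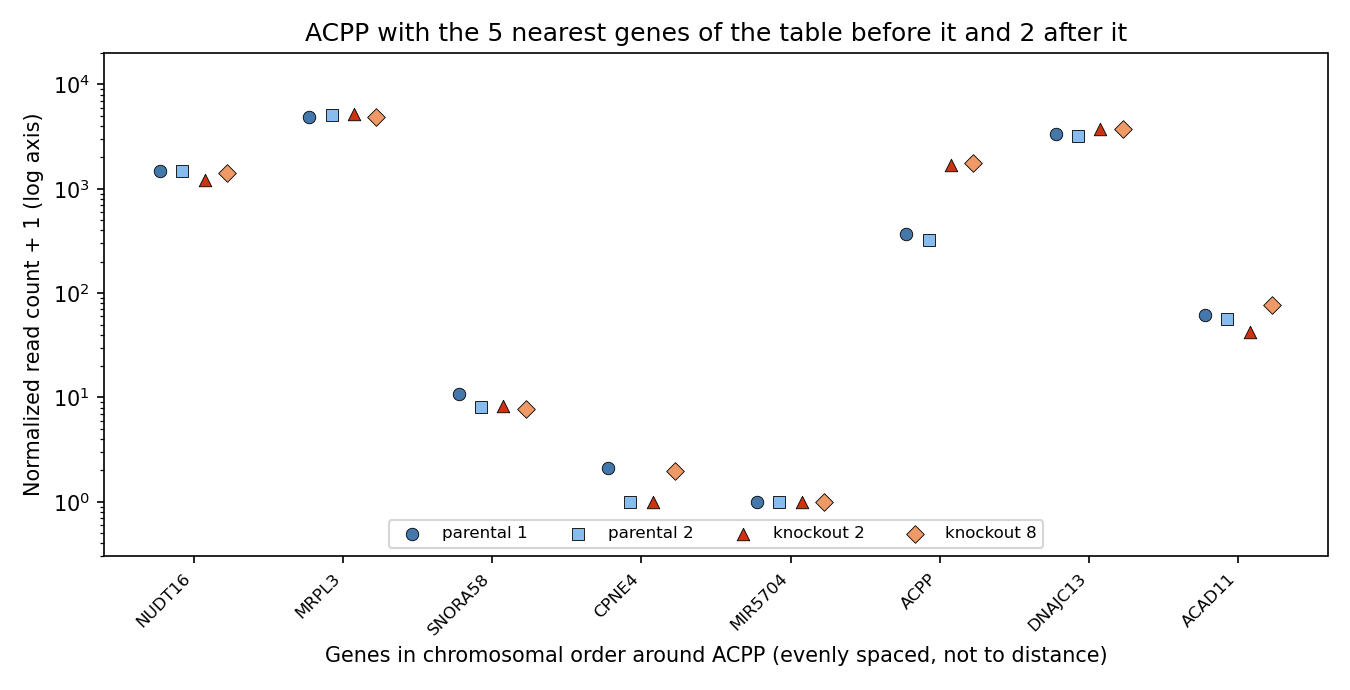
Normalized read count plus 1 (log axis) of ACPP, the 5 nearest genes of the table before it and the 2 nearest after it, in chromosomal order and evenly spaced, 1 point per library. ACPP is the gene whose knockout points part widely from the parental ones, from 322 and 369 to 1705 and 1772; DNAJC13 beside it moved from 3322 and 3193 to 3732 and 3697.

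The same measure was near 0 around NT5E (0.04 and -0.0014 in knockout 2 and 8), ENTPD1 (-0.02 and 0.04), ADORA2B (-0.05 and -0.04) and ADA (0.06 and 0.01). ADORA1 differed: its 40 flanking genes on chromosome 1 had a median of 0.04 in knockout 2 and of -0.35 in knockout 8, where ADORA1 itself was at -0.58. Of these 40 genes 15 were lower and 1 was higher in both knockout libraries, where 23.7% and 22.8% of all genes were. In knockout 2, with flat surroundings, ADORA1 was at -0.29. The part of the flanking shift in the value of ADORA1 was not tested. Beside ADORA2B, ZSWIM7 (755 and 738 against 652 and 696) and TTC19 (3386 and 3188 against 2556 and 3078) were also below the parental range in both knockout libraries.

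Genes whose profile over the 4 libraries was among the 5 nearest to that of ACPP, by root mean square distance of log2(normalized count + 1) from the parental mean, were FBXL16 (0.10), GPR143 (0.21), FGF7 (0.24) and IGSF10 (0.27). All had fewer counts than ACPP, at most 65.4 in any library. FBXL16, an F-box protein gene, had 10.96 and 9.65 normalized counts against 52.6 and 65.4. GPR143, a receptor of the melanosome, had 3.29 and 2.63 against 13.7 and 18.6. The likeness is over 4 libraries and is a description.

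The rest of the extracellular nucleotide pathway was read from fixed lists. Of 22 enzymes that break down nucleotides outside the cell or in the secretory pathway, 16 were measured above the count minimum, with a median log2 fold change of 0.07 against -0.0057 over all genes tested. Of the 16, which include ACPP, NT5E and ENTPD1, 4 were higher in both knockout libraries (ACPP, ENPP1, ENPP4 and CANT1) and 5 lower (ENTPD1, ENPP2, BST1, ENTPD4 and ENTPD6), beside 22.8% and 23.7% of all genes. By DESeq2 ACPP was the 1 member called, beside 1.24% higher and 1.26% lower of all genes, and limma and edgeR called 0. ENPP2 (autotaxin), which makes lysophosphatidic acid, had 1980 and 1270 against 1218 and 512 (limma adjusted p = 0.486), and its parental libraries differed as well. ENPP4 had 201 and 184 against 246 and 340 (limma adjusted p = 0.3998). ENPP1, which releases AMP from ATP, had 202 and 205 against 317 and 210, and BST1, a relative of CD38, had 374 and 366 against 233 and 355. The intracellular nucleotidases ENTPD6 (3657 and 4020 against 3178 and 3560) and CANT1 (2355 and 2363 against 2435 and 2652) lay within a log2 fold change of -0.19 and 0.11. ENTPD2 and ENTPD3, surface relatives of ENTPD1, had at most 6.31 and 3.91 normalized counts. The alkaline phosphatase ALPL, another source of adenosine from AMP, had 17.5 and 21.1 against 72.6 in knockout 2 and 5.86 in knockout 8, so the knockout libraries fell on either side. The intestinal and germ-cell alkaline phosphatases ALPI and ALPPL2 had 0 reads in all libraries.

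The other acid phosphatases stayed closer to their parental levels than ACPP. Of 7 listed, 6 were measured, with log2 fold changes from -0.22 (ACP6) to 0.23 (PXYLP1) and a median of 0.06, and limma, edgeR and DESeq2 called 0. ACP2, the lysosomal acid phosphatase, had 1469 and 1526 against 1742 and 1574. ACP1 had 3084 and 3149 against 3099 and 3124. At an unadjusted p under 0.05 limma gave 0 of the 6, beside 5.85% higher and 6.16% lower of all genes.

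Among 29 genes that move, salvage or convert adenosine and other nucleosides, 23 were measured, with a median log2 fold change of -0.07, and limma, edgeR and DESeq2 called 0. At an unadjusted p under 0.05 limma gave 1 higher and 2 lower, ADA among the latter, beside 5.85% and 6.16% of all genes. Of the 23, 9 were lower and 2 higher in both knockout libraries, beside 23.7% and 22.8% of all genes. The higher ones were the equilibrative transporters SLC29A1 (ENT1), with 819 and 895 against 1022 and 1077 (limma adjusted p = 0.393), and SLC29A3, with 179 and 161 against 233 and 222 (limma adjusted p = 0.422). MTAP, which recycles methylthioadenosine, had 24655 and 22379 against 15885 and 18744 (limma adjusted p = 0.324). The nucleotidases NT5C (1957 and 1903 against 1725 and 1498) and NT5M (175 and 154 against 111 and 152), the transporter SLC29A2 (1138 and 1126 against 975 and 999) and AHCY, which splits adenosine from homocysteine (7035 and 7373 against 6045 and 6815), were below the parental range in both knockout libraries. Their limma adjusted p ran from 0.423 to 0.604. ADK, the kinase that returns adenosine to AMP inside the cell, had 1290 and 1305 against 1368 and 1225 (limma adjusted p = 0.990). CECR1 (ADA2), the secreted adenosine deaminase, had at most 2.10 counts. DPP4, the surface protein that binds ADA, had 25.2 and 43.9 against 56.8 and 34.2.

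For ATP release and sensing, 13 of 24 genes were measured. ANKH, a membrane protein involved in ATP and pyrophosphate release, was the 1 gene DESeq2 called in this list, and it fell from 28582 and 25570 to 18978 and 20329 (DESeq2 log2 fold change -0.46 ± 0.13, adjusted p = 0.0215). It was not called by limma (adjusted p = 0.286) or edgeR (adjusted p = 0.281). DESeq2 lost the call of ANKH without either parental library and kept it without either knockout library. Its log2 fold change in these fits ran from -0.54 to -0.38. Those without a knockout library take no spread from the knockout group. The ATP channel PANX1 had 815 and 741 against 1237 and 1045 (limma adjusted p = 0.286, DESeq2 adjusted p = 0.0830). P2RY6, a receptor for UDP, had 5.48 and 7.89 against 24.2 and 15.6 (limma adjusted p = 0.345). PANX2 had 153 and 140 against 208 and 183, P2RY11, an ATP receptor, had 194 and 163 against 117 and 151, and CALHM2 had 1321 and 1414 against 1439 and 1569. P2RX7, an ATP-gated channel, had 109 and 86.8 against 36.8 and 124, on either side of the parental pair. P2RY2, P2RY12, P2RY13 and P2RY14 had 0 reads in every library.

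Downstream of the receptors, 32 of 34 genes of cAMP signalling were measured, with a median log2 fold change of 0.01. DESeq2 called 3 higher and 0 lower (backgrounds 1.24% and 1.26%), and limma and edgeR called 0. In both knockout libraries 12 were higher and 6 lower (22.8% and 23.7% of all genes). An unadjusted limma p under 0.05 was reached by 7 genes that were higher and 1 that was lower (5.85% and 6.16% of all genes). PDE4B, a phosphodiesterase that breaks down cAMP, rose by DESeq2 from 312 and 280 normalized counts to 3339 in knockout 2 and 1287 in knockout 8 (log2 fold change 2.97 ± 0.40, DESeq2 adjusted p = 2.15e-10). Both knockout libraries were far above the parental ones; knockout 2 was the higher of them. By DESeq2 without each library in turn, its log2 fold change ran from 2.12 to 3.50. PDE4B was not called by limma (adjusted p = 0.231) or edgeR (adjusted p = 0.236).

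NR4A1, an immediate early transcription factor, had 5480 and 6947 against 10285 and 9234 (DESeq2 adjusted p = 0.0106), a call that was lost without any 1 library (DESeq2 adjusted p from 0.0719 to 1.00). PRKAR1B, a regulatory subunit of the cAMP-dependent kinase, had 1095 and 1040 against 1581 and 1437 (DESeq2 adjusted p = 0.0480). DESeq2 lost this call without either parental library and kept it without either knockout library. The log2 fold change of PRKAR1B in these fits ran from 0.43 to 0.56. Those without a knockout library take no spread from the knockout group. The cAMP-responsive genes FOS and CREM, lower in both knockout libraries, had 361 and 393 against 341 and 334, and 1322 and 1547 against 1222 and 1240 (limma adjusted p = 0.669 and 0.513). NR4A2 had 2204 and 2146 against 1141 and 2613. PPARGC1A, a cAMP-inducible coactivator, had 2.19 and 10.5 against 97.9 in knockout 2 and 17.6 in knockout 8 (limma adjusted p = 0.407). Of the cAMP-making adenylyl cyclases, ADCY5 had 25.2 and 14.9 against 46.3 and 30.3, and ADCY8 had 14.3 and 14.9 against 1.05 and 11.7. GNAS, the stimulatory G protein subunit, had 68451 and 69128 against 46863 and 61076 (limma adjusted p = 0.485), and the inhibitory subunit GNAI3 had 4394 and 4460 against 5846 and 5259 (limma adjusted p = 0.317).

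**Figure D4:**
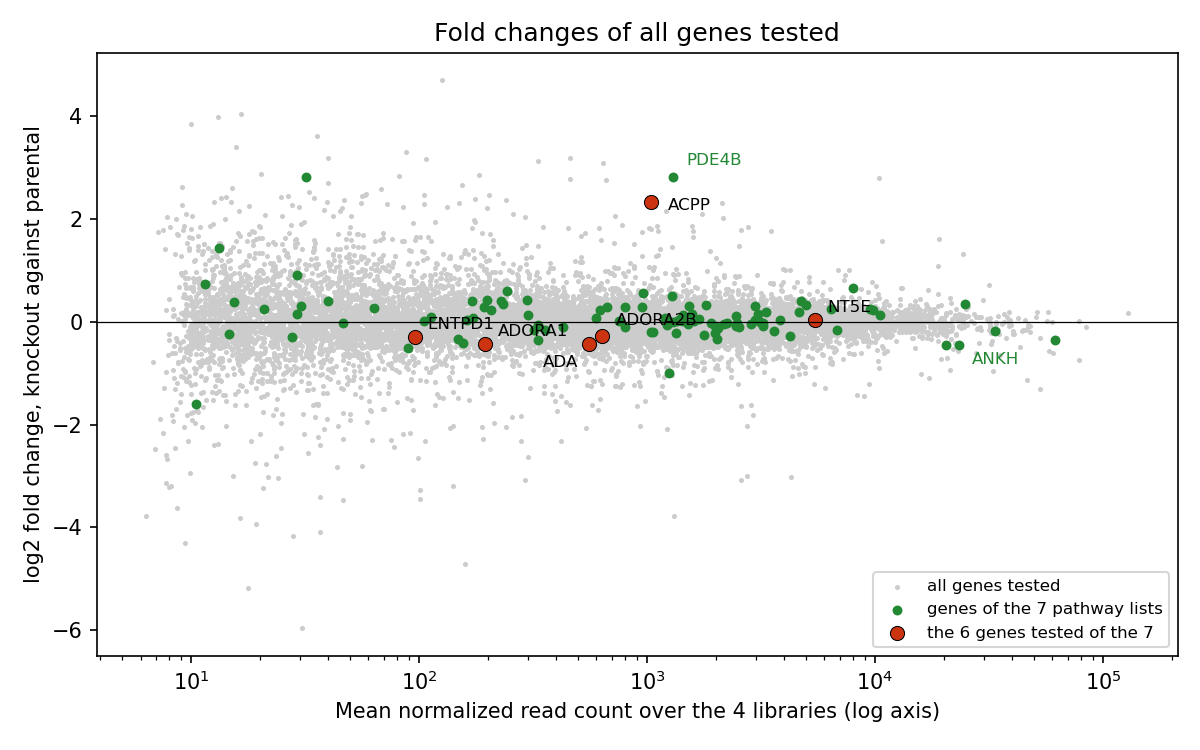
Log2 fold change, knockout against parental, against the mean normalized count (log axis) for the 15431 genes tested (grey), the genes of the 7 pathway lists (green) and the 6 measured genes of the set (red). ACPP at 2.33 and PDE4B stand apart at means of 1042 and 1305 counts, and the other red points lie between -0.44 and 0.03.

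Markers of other cell types that carry these genes were read in the same libraries. The counts of markers higher or lower in both knockout libraries stand beside 22.8% and 23.7% of all genes. ACPP is a marker of prostate epithelium, and KLK3, which defines that tissue, had 0 reads in all 4 libraries. KLK2 had 13.2 and 16.7 counts in parental 1 and 2 and 4.21 and 5.86 in knockout 2 and 8. Of 10 prostate markers 7 were measured, 2 were higher and 1 was lower in both knockout libraries. Their summed counts were 1926 and 1865 in the parental libraries, and 1653 and 2271 in knockout 2 and 8. ENTPD1 is abundant on blood and endothelial cells. PTPRC (CD45) had at most 1.95 counts, HBB had 0, and CDH5 and CLDN5 had at most 0.977. Of 10 blood markers 4 were measured, 2 of them higher in both knockout libraries and 0 lower, with sums of 1815 and 1583 in the parental libraries against 2499 and 1268, mostly from CD68. The higher ones were ITGAM (13.2 and 7.89 against 29.5 and 25.4) and LYZ (80.0 and 113 against 114 and 263). Of 6 endothelial markers 3 were measured, and PECAM1, VWF and KDR were all higher in both knockout libraries; the sums were 469 and 600 against 835 and 694. Of 7 fibroblast markers 5 were measured, 2 of them higher and 0 lower in both knockout libraries, with sums of 1353 and 1299 against 2336 and 1384, and COL3A1 had at most 1.10 counts. Of 10 melanocyte markers 6 were measured, 1 of them higher and 4 lower in both knockout libraries, with a median log2 fold change of -0.28. They summed to 39873 and 38845 against 34124 and 33373, mostly from SOX10. PMEL, the marker that was higher, had 28.5 and 28.1 against 55.8 and 36.1 (limma adjusted p = 0.509). MITF, the main regulator of melanocyte genes, fell by DESeq2 from 1645 and 1562 to 849 and 1050 (log2 fold change -0.76 ± 0.18, DESeq2 adjusted p = 0.00265). MITF was not called by limma (adjusted p = 0.237) or edgeR (adjusted p = 0.236). DESeq2 lost the call of MITF without either parental library and kept it without either knockout library. Its log2 fold change in these fits ran from -0.92 to -0.61. Those without a knockout library take no spread from the knockout group. S100B, a protein of neural crest lineages, had 2138 and 2037 against 1728 and 1428 (limma adjusted p = 0.341). The part of any of these in the values of the 7 genes was not tested.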

How the data were processed

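Poly(A)-selected, strand-specific RNA libraries were measured, per the labels' protocols. The deposited table gives a normalized signal per gene and library, which is a read count divided by 1 factor per library by the authors. Dividing by the smallest value of a library gave whole reads for 100% of values, within 0.001. STAR, Picard, HTSeq, DESeq2, deepTools and build hg38 are named per the submitters' processing notes; the sources used here give no version, annotation or strand setting. Gene length is not corrected.

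Genes were tested mainly with limma 3.58.1 (trended variance prior) on log2(normalized count + 1). The 15431 genes reaching 10 in 2 or more libraries entered, and p-values were adjusted by Benjamini-Hochberg, with 0.05 as threshold; such fold changes understate those of weak genes. DESeq2 1.42.0, edgeR 4.0.16 and limma-voom on the recovered reads, a pseudocount of 0.1, other filters, equal library totals and each library left out were alternatives; the DESeq2 fits without a library were chosen after seeing the data. An exact permutation test of 2 against 2 cannot go below p = 0.333, so none was used. Limma, edgeR (TMM), limma-voom and DESeq2 with all 4 libraries were tested on simulated data. The simulated spread was equal in both groups, unlike the gaps between the libraries here. The other alternatives were not tested in this way. Without 1 library, the lone one of its group is assumed to vary like the other group.

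The 7 genes, 7 pathway lists and 5 marker lists (177 entries, all in the table) were chosen with earlier results of these data known. Named genes were the 7 genes, at most 8 per list (called first, then those whose groups did not overlap, by fold change), the 5 nearest to ACPP in profile, and neighbours within 5 places of ACPP and 3 of the others. Genes below the count minimum and PKIG, the overlapping neighbour of ADA, were given for their level. Results for some genes that these rules name are not reported here. SOX10 and the markers served as checks, and ACP1, PXYLP1, ADK, DPP4, ALPL, P2RX7, FOS, CREM, NR4A2 and CA9 were added after their values were seen. Positions and exon lengths are from GENCODE 29, and start windows from RefSeq.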

Additional observations from a re-analysis of the deposited data

How the results depend on the processing

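The number of genes called was 0 by limma with all 4 libraries, by edgeR (TMM or RLE factors), limma-voom, a pseudocount of 0.1, at least 1 CPM in 2 libraries and equal library totals. DESeq2 called 398 (198 higher, 200 lower), and limma without a filter 102 (93 higher, 9 lower). Limma without each library in turn called 0 to 5023 genes (0 to 2421 higher, 0 to 2602 lower). DESeq2 called 38 genes without parental 1 (27 higher, 11 lower), 45 without parental 2 (30 and 15), 1264 without knockout 2 (517 and 747) and 2611 without knockout 8 (1215 and 1396). The fits without a knockout library take no spread from the knockout group.

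The log2 fold change of ACPP was 2.33 by DESeq2, and by that tool 2.43 without parental 1, 2.23 without parental 2, 2.36 without knockout 2 and 2.30 without knockout 8, called each time. By limma it ran from 2.23 to 2.43 without each library and was called without either knockout library. That of NT5E turned to -0.24 without knockout 2 by limma and DESeq2, called by limma alone, and was 0.30 without knockout 8 by both, called by both. That of ADORA1 ran from -0.58 to -0.42 by limma without a library other than knockout 8, and to -0.29 without that one; it was called by limma without knockout 2 and not by DESeq2. That of ADA ran from -0.54 to -0.32, with -0.54 by limma and DESeq2 without knockout 8. ADA was called by both there, where no spread comes from the knockout group, and in no other fit run. Those of ENTPD1 and ADORA2B were not called in any fit run. DESeq2 called 1 gene of extracellular nucleotide hydrolysis, 1 of P2 receptors and nucleotide release and 3 of cAMP signalling, where limma and edgeR called 0. Among all genes DESeq2 called 1.24% higher and 1.26% lower. No paired analysis was possible because the knockout columns, numbered 2 and 8, cannot be matched to labelled replicates 1 and 2. ADORA2A, with 2 to 7 reads a library, was too shallow for any comparison.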

Other observations

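Hypoxia-inducible genes were listed because NT5E and ADORA2B are known to respond to low oxygen. All 14 were measured, with a median log2 fold change of 0.22, and 6 lay above and 0 below the parental range in both knockout libraries, beside 22.8% and 23.7% of all genes. Limma, edgeR and DESeq2 called 0 of them, and limma gave 2 of them, both higher, an unadjusted p under 0.05. Of all genes tested, 5.85% were higher and 6.16% lower at that limma threshold. LDHA, lactate dehydrogenase A, had 22516 and 20887 normalized counts against 28326 and 27016 (limma adjusted p = 0.324), and the glucose transporter SLC2A1 had 4108 and 3998 against 4802 and 6035 (limma adjusted p = 0.368). EGLN3, an oxygen sensor, had 7.67 and 8.77 against 18.9 and 10.7. PDK1 had 1562 and 1194 against 1590 and 1791, P4HA1 had 2998 and 2367 against 3326 and 3238, and HIF1A, the oxygen-regulated transcription factor, had 9836 and 10194 against 10358 and 11462. The parental libraries themselves differed in this list: CA9, carbonic anhydrase 9, had 1361 in parental 1 and 288 in parental 2, against 924 and 427 in knockout 2 and 8.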
